A study of Mus musculus with 24 samples.

Results

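The myosin heavy chain isoforms of skeletal muscle encoded by 6 genes, Myh4, Myh1, Myh2, Myh8, Myh3 and Myh7, were measured by RNA sequencing in the tibialis anterior (TA) of the mouse. They were taken by name, and all 6 were found among the 55487 gene identifiers listed for each library. The study applied photobiomodulation therapy (PBMT), near-infrared light of 830 nm shone on the shaved lower limbs under anesthesia, and controls were shaved and anesthetized for the same time without light. The left TA of 24 male wild-type C57BL/6J mice aged 5 to 7 weeks was collected, 1 library per mouse, in 4 groups of 6, namely control and PBMT mice that stayed sedentary and control and PBMT mice that were fatigued. Fatigued mice had run on a treadmill to exhaustion 24 h after the light or the control handling and were killed directly afterwards. Sedentary mice did not run the test. The paper describes acclimatization runs on the treadmill before the test and does not state whether sedentary mice had them. The library names place every fatigued mouse in 1 sequencing project and every sedentary mouse in another, so exercise state and project cannot be told apart. Total counts per mouse lay between 43271093 and 46904076 in sedentary controls, 46327516 and 52775844 after sedentary PBMT, 56792327 and 68726155 in fatigued controls, and 53122528 and 68566029 after fatigued PBMT.

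Myosin heavy chain is the motor of the thick filament, and the isoform a fiber makes sets how fast it shortens and how quickly it spends ATP. Adult limb muscle uses a fast set, in which Myh4 encodes type IIb, Myh1 type IIx and Myh2 type IIa, and a slow isoform, type I, encoded by Myh7, while Myh3 (embryonic) and Myh8 (perinatal) serve developing or regenerating fibers. The mouse TA is a fast muscle built mostly of IIb and IIx fibers, and exercise, nerve activity and thyroid hormone are known to shift the balance between isoforms.

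Levels are given as CPM, counts per 1000000 counts of the library after TMM scaling over the 24 mice, when mice are compared for the same gene, and as CPM per kb of exon when genes are compared with each other. A share is the level of a gene per kb as a percent of the summed level per kb of the 6 genes in the same mouse. Sedentary control mouse 4 stood apart from its group: its mean distance from the group mean over genes was 0.50 on the log2 scale, against 0.30 to 0.34 for the other 5 mice. Fatigued PBMT mouse 5 also lay at 0.51, against 0.32 to 0.41 for the rest of its group. Some of the values below are also given without these mice. Striated muscle markers (Acta1, Ckm, Des, Mb and Ttn) were high in each mouse, with a sum of 50060 to 71460 CPM, Acta1 the most abundant and none at 0.

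Myh4, the fastest isoform, was the most abundant of the 6 genes per kb in each of the 24 mice. In sedentary controls its level was 26170 ± 8671 CPM (mean ± SD, n = 6), with a lowest value of 16540, a median of 23880 and a highest of 40910. After sedentary PBMT it was 30270 ± 7211 CPM, from 20020 through a median of 30890 to 40440. The fatigued controls stood at 47630 ± 8107 CPM (lowest 35900, median 47150, highest 61020), and the fatigued PBMT mice at 47620 ± 2870 CPM (42520, 47760 and 50990). The fatigued mice thus lay high and the sedentary mice low, with sedentary control 4 (40910) and fatigued control 5 (35900) as the mice that crossed over in the control groups, whereas the PBMT groups did not overlap. In the fatigued PBMT group the coefficient of variation was 6.03%, against 17.0% in the fatigued controls. It was 23.8% after sedentary PBMT and 33.1% in the sedentary controls, or 23.1% in the latter without mouse 4. Myh4 held rank 1 of all genes by CPM in 11 of 12 fatigued mice and ranged from rank 1 to rank 6 in sedentary mice.

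Myh1, the IIx isoform and the next most abundant, had overlapping levels in the 4 groups. Sedentary controls gave 14940 ± 2379 CPM (13410, median 14210, 19730), and sedentary PBMT mice 13650 ± 3704 CPM (8270, 14700, 18690). Fatigued controls gave 15770 ± 2600 CPM (12500, 15780, 19970) and fatigued PBMT mice 14800 ± 4729 CPM (9712, 13480, 22180). All 4 groups overlapped, and the highest sedentary control was mouse 4, without which that group spanned 13410 to 14480 CPM. Across the 12 sedentary mice no relation between Myh1 and Myh4 levels passed the test (Pearson's r -0.17, permutation p = 0.595; Spearman's rho -0.01, permutation p = 0.974). Without sedentary control 4, r was -0.49 (permutation p = 0.123) and rho -0.32 (permutation p = 0.342), and without the 2 mice farthest from the median r was 0.66, of the opposite sign. In the 12 fatigued mice r was 0.02 (permutation p = 0.958) and rho 0.06 (permutation p = 0.851), with r at -0.33 without the 2 farthest mice. Over these 2 relations the adjusted p was 0.958 for r and 0.974 for rho in both.

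Myh2, the IIa isoform of fast fibers rich in mitochondria, was present at a far lower level. It reached 813 ± 262 CPM in sedentary controls (543, median 776, 1156) and 648 ± 209 CPM after sedentary PBMT (479, 578, 1054). In fatigued controls it was 599 ± 174 CPM (360, 615, 876), and after fatigued PBMT 635 ± 131 CPM (434, 635, 830). The groups overlapped, with the highest mice among the sedentary controls and the lowest among the fatigued controls.

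The developmental isoforms were scarce. Myh8, the perinatal chain, ranged from 37.2 to 59.1 CPM in 23 mice and stood at 159 CPM in sedentary control 4, which was the highest mouse for Myh3 as well. The Myh8 mean of the sedentary controls was 62.8 ± 47.5 CPM with that mouse and 43.4 ± 4.51 CPM (n = 5) without it. Means in the other groups were 52.1 ± 6.83 CPM after sedentary PBMT, 47.8 ± 7.18 CPM in fatigued controls and 49.8 ± 4.95 CPM after fatigued PBMT. Myh3, the embryonic chain, lay between 1.30 and 5.25 CPM in all mice, with group means of 2.80, 2.34, 2.62 and 2.38 CPM in the same order, the first being 2.31 CPM without sedentary control 4. Markers of immature or regenerating fibers were also low beside this tissue's own actin: their 10 genes summed to 245 ± 34.1 CPM in sedentary controls (184 to 277) and 263 ± 124 after sedentary PBMT (154 to 493). The same sum was 551 ± 337 CPM in fatigued controls (253 to 1158) and 562 ± 318 after fatigued PBMT (218 to 1123), with Actc1, the cardiac actin of developing fibers, as the most abundant gene. Most of this sum was Actc1 itself, with means of 185, 202, 478 and 479 CPM in the 4 groups in the same order. Up to 2 of these 10 genes, Chrng and Mymx, which encode the fetal acetylcholine receptor subunit and a fusion peptide, were at 0 in a mouse.

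Myh7, the slow chain, was the isoform that varied most from mouse to mouse. Sedentary controls held 2.13 ± 1.47 CPM (0.666, median 1.68, 4.27) and sedentary PBMT mice 2.96 ± 1.52 CPM (1.64, 2.71, 5.76). Fatigued controls held 8.84 ± 13.5 CPM (0.303, 3.99, 35.5), and fatigued PBMT mice 13.2 ± 18.5 CPM (0.228, 2.23, 41.9). The groups overlapped, and the fatigued mice took both ends: fatigued control 6 (35.5 CPM), fatigued PBMT 1 (31.6 CPM) and fatigued PBMT 5 (41.9 CPM) were far above the rest, and fatigued control 4 (18 counts) and fatigued PBMT 2 (13 counts) were the lowest of the 24. Markers of other cells stood apart in some of these mice: fatigued PBMT 5 held the highest fibroblast (3052 CPM), tendon (818 CPM), adipocyte (89.8 CPM) and myeloid (46.2 CPM) sums of the 24. The lowest sums of spindle and extraocular fiber markers were in fatigued control 4 (5.70 CPM) and fatigued PBMT 2 (8.18 CPM). Fatigued control 6 (26.2 CPM) and fatigued PBMT 1 (20.02 CPM) had the highest of these sums in their groups, while fatigued PBMT 5 had 12.0 CPM. The part of these in the Myh7 values was not tested. The slow partners Tnnc1, Tnni1 and Tnnt1, troponin subunits of slow fibers, moved with it. Over the 24 mice, after removing group means of log2 CPM, Tnnc1 was the gene most like Myh7 of 15107 compared (r = 0.93), followed by Tnni1 (r = 0.90) and Tnnt1 (r = 0.89). In fatigued PBMT 5, for example, Tnnc1 was at 9.09 CPM, while in fatigued PBMT 2 it was at 0.260 CPM. In bulk muscle, fewer fibers of a type and less RNA per fiber cannot be told apart.

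**Figure D1:**
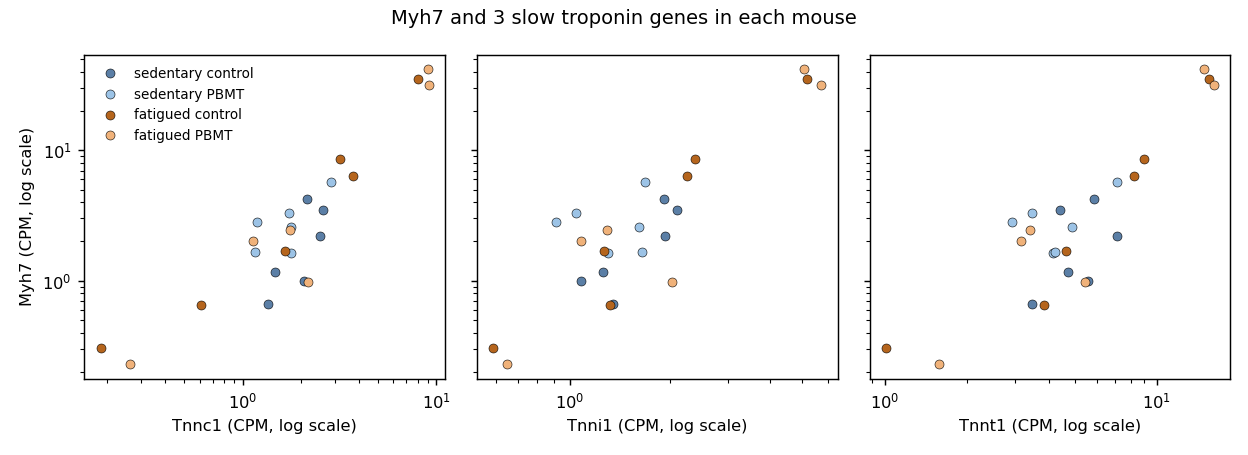
Myh7 (vertical, CPM, log scale) against Tnnc1, Tnni1 and Tnnt1 (horizontal, CPM, log scale), 1 point per mouse, colored by group. The 3 mice at the upper right are fatigued control 6, fatigued PBMT 1 and fatigued PBMT 5, with Myh7 between 31.6 and 41.9 CPM.

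The slow fiber marker list as a whole was far less spread than Myh7. The 9 genes (Tnni1, Tnnt1, Tnnc1, Myl2, Myl3, Tpm3, Atp2a2, Casq2 and Myoz2) summed to 232 ± 28.7 CPM in sedentary controls (192 to 266) and 217 ± 39.9 after sedentary PBMT (182 to 283). In fatigued controls the sum was 209 ± 29.6 CPM (180 to 252), and after fatigued PBMT 245 ± 48.3 (173 to 290). Myoz2, a Z-disc protein, was the most abundant, and none of the 9 genes was at 0 in any mouse. The sum was 252 CPM in fatigued control 6, 288 in fatigued PBMT 1 and 278 in fatigued PBMT 5, within the range of the sedentary mice for the first and last of these. Myl2 (r = 0.80), Tpm3 (r = 0.78) and Atp2a2 (r = 0.63) followed Myh7 over the 24 mice, whereas Myl3 (r = -0.01), Casq2 (r = -0.19) and Myoz2 (r = -0.26) did not.

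Per kb the order of the genes was the same from Myh4 to Myh8 in every group. In sedentary controls the means were 4350 CPM per kb for Myh4, 2352 for Myh1, 114 for Myh2, 5.33 for Myh8, 0.462 for Myh3 and 0.247 for Myh7. In fatigued controls they were 7918, 2482, 83.9, 4.06, 0.432 and 1.03 CPM per kb for the same genes. Myh4 exceeded Myh1 in 6 of 6 mice of each group, although the ranges of these neighbours overlapped in the sedentary controls. Myh1, Myh2 and Myh8 were separated without overlap in all 4 groups, Myh1 at 20.7 to 29.6 times Myh2 and Myh2 at 20.5 to 21.4 times Myh8. The Myh8 value per kb divides by 11772 bases of merged exons, while its longest transcript has 6149, so per kb of that transcript it would be higher. Myh2 divides by 7137 bases, with 6083 in its longest transcript, so with these lengths the ratio of Myh2 to Myh8 would be lower. Myh7 likewise divides by 8616 bases, while its longest transcript has 6230, so that its order beside Myh3 may rest on the length used. Myh3 and Myh7 did not differ beyond their spread: Myh3 was the higher in 4 of 6 mice of each sedentary group, and Myh7 in 3 of 6 fatigued controls and 2 of 6 fatigued PBMT mice.

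**Figure D2:**
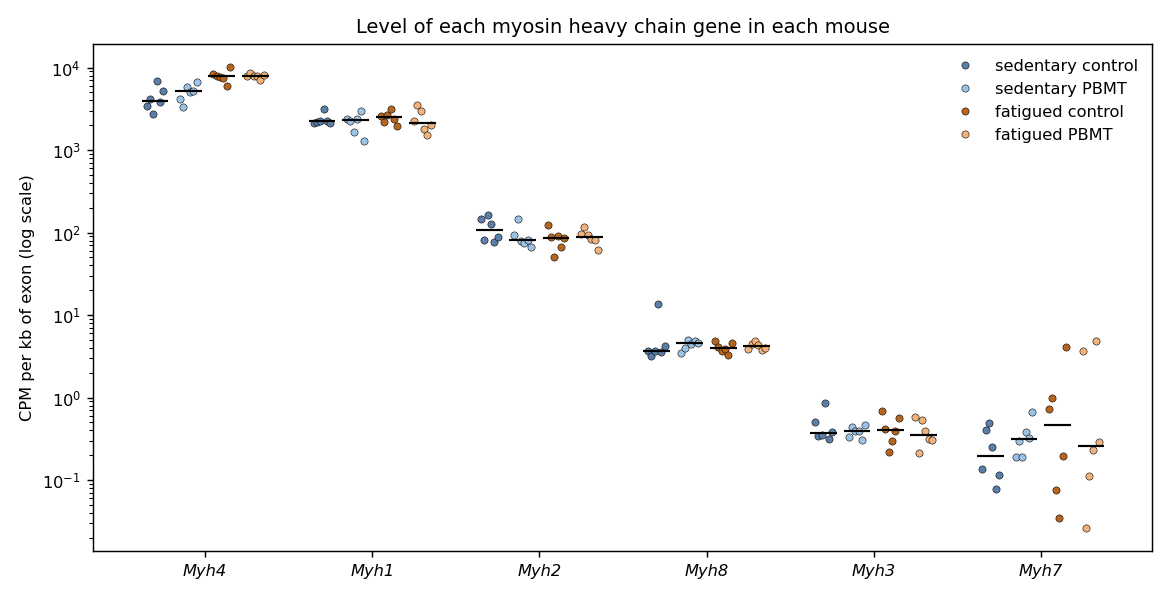
CPM per kb of exon (log scale) for the 6 genes, 1 point per mouse in replicate order, with the 4 groups side by side and a bar at each median. Myh4 sits highest in each group, and Myh7 spans the widest range, most of all in the fatigued groups.

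As shares of the summed level, Myh4 and Myh1 made up nearly the whole of the myosin heavy chain RNA. The Myh4 share was 62.8 ± 6.02% in sedentary controls (53.1, median 63.0, 70.1) and 68.5 ± 9.59% after sedentary PBMT (57.9, 65.4, 83.0). It was 75.2 ± 4.88% in fatigued controls (69.8, 74.8, 83.1) and 77.0 ± 4.72% after fatigued PBMT (70.1, 78.4, 81.4). Of the control groups, 5 of 6 fatigued mice were above the highest sedentary mouse, while the PBMT groups overlapped, with sedentary PBMT 6 (83.0%) above every fatigued PBMT mouse. The Myh1 share was the counterpart, at 35.3 ± 5.31% in sedentary controls (28.6, 35.7, 43.6) and 30.1 ± 9.16% after sedentary PBMT (16.1, 33.6, 39.5). In fatigued controls it was 23.99 ± 4.87% (16.1, 24.4, 29.3), and after fatigued PBMT 22.1 ± 4.69% (17.6, 20.7, 28.9). The sedentary mice were thus the higher, with overlap in both pairs of groups.

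The Myh2 share was 1.78 ± 0.844% in sedentary controls (1.21, median 1.27, 3.13) and 1.31 ± 0.647% after sedentary PBMT (0.829, 1.03, 2.57). It was 0.800 ± 0.210% in fatigued controls (0.482, 0.822, 1.12) and 0.860 ± 0.140% after fatigued PBMT (0.591, 0.902, 0.962). Each fatigued control lay below each sedentary control, and the PBMT groups overlapped. The Myh8 share was 0.0727 ± 0.0313% in sedentary controls (0.0493, median 0.0616, 0.135), and 0.0610 ± 0.00600% (0.0532 to 0.0693) after sedentary PBMT. It was 0.0387 ± 0.00340% in fatigued controls (0.0349 to 0.0445) and 0.0411 ± 0.00335% (0.0374 to 0.0449) after fatigued PBMT, so that the fatigued mice were below the sedentary mice without overlap under both handlings. Myh3 and Myh7 had lower mean shares than Myh8 in every group.

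**Figure D3:**
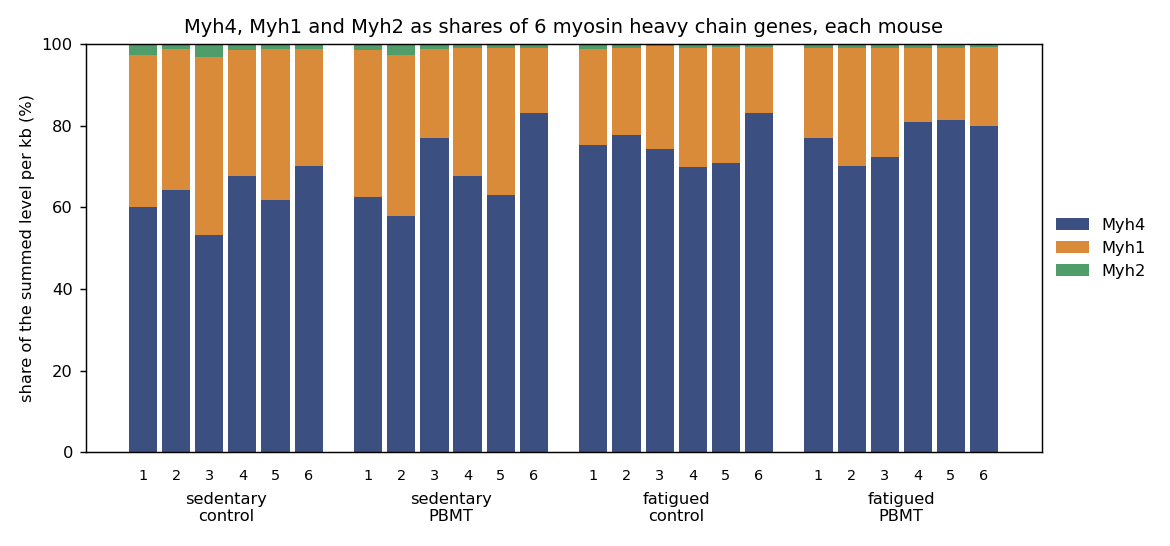
Share of the summed level per kb (%) taken by Myh4, Myh1 and Myh2 in each mouse, as stacked bars with replicate numbers under them. The Myh4 part is tallest in the fatigued groups, at a mean of 75.2% in controls and 77.0% after PBMT, against 62.8% and 68.5% in the sedentary groups.

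PBMT in sedentary muscle was compared with sedentary control to ask whether light alone altered the isoforms a day later. None of the 6 myosin genes passed the edgeR test (adjusted p under 0.05 over all 14177 genes tested), where 4 genes, 0.0282%, passed, 3 higher and 1 lower. Myh4 was 1.16 times the control level (log2 fold change 0.22, 95% interval -0.20 to 0.64, adjusted p = 0.763) and was above the control median in 5 of 6 mice. Myh2 had a log2 fold change of -0.32 (interval -0.80 to 0.15, adjusted p = 0.701) and was above the control median in 1 of 6 mice. The others were Myh1 at -0.12 (interval -0.47 to 0.22), Myh3 at -0.24 (-0.71 to 0.22), Myh7 at 0.48 (-0.45 to 1.42) and Myh8 at -0.25 (-0.97 to 0.46). The median of the 6 log2 fold changes was -0.18, beside -0.002 over all genes, with 2 members higher and 4 lower. At an unadjusted p under 0.05, 0 of the 6 and 1082 genes (7.63%) passed, and DESeq2 called 60 genes and none of the 6. Without sedentary control 4 the signs of Myh8 (0.26) and Myh3 (0.02) turned, Myh4 stood at 0.38, and 18 genes passed. The number that passed was 20 without sedentary PBMT 5, 10 without sedentary PBMT 2, 7 without sedentary PBMT 4 and 2 without sedentary control 1, 2 or 6, with no member among those called in any of these fits.

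No share passed the test for PBMT in sedentary muscle. The Myh4 share was 5.67 points higher after PBMT (exact permutation test, two-sided, p = 0.251) and the Myh1 share -5.20 points (exact p = 0.268), both smaller than the SD of the PBMT group. Without sedentary PBMT 6 these were 2.77 and -2.39 points. The Myh2 share differed by -0.465 points (exact p = 0.225) with 4 of 6 PBMT mice below the lowest control, by -0.194 points without sedentary control 3 and by -0.716 points without sedentary PBMT 2. For Myh3, Myh7 and Myh8 the exact p was 0.180, 0.632 and 0.567. Levels and shares of all 6 overlapped between these groups, where the levels of 0.48% of genes did not. These are among 24 share tests, 6 isoforms in 4 comparisons, and their p-values are not adjusted.

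PBMT in fatigued muscle asks the same question after the treadmill test. Myh4 was equal in mean, 47620 against 47630 CPM, and the interval of its fold ran from 0.856 to 1.17. None of the 6 genes was called by edgeR, as was none of 14574 genes tested (0.0%), while 230 genes (1.58%), none of them a member, had an unadjusted p under 0.05 and DESeq2 called 2, neither of them a member. The interval of the log2 fold change was -0.49 to 0.31 for Myh1, -0.33 to 0.50 for Myh2, -0.15 to 0.27 for Myh8 and -0.77 to 0.48 for Myh3. For Myh7 it ran from -2.22 to 3.38, which leaves a large difference undetectable at this spread. The members split 3 higher and 3 lower, with a median of 0.03 beside 0.004 over all genes. Without fatigued PBMT 5, Myh7 moved from 0.58 to -0.26, Myh4 to 0.03 and Myh1 to 0.003, and without fatigued control 6, Myh7 moved to 1.91.

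Shares after fatigued PBMT differed from fatigued control by 1.79 points for Myh4 (exact permutation p = 0.526) and -1.86 points for Myh1 (exact p = 0.502). With 1 mouse left out they ran from 0.718 to 3.38 points for Myh4 and from -3.44 to -0.795 points for Myh1. For Myh2 the difference was 0.0599 points (exact p = 0.587), and for Myh3, Myh7 and Myh8 the exact p was 0.755, 0.591 and 0.260. All 6 isoforms overlapped between the groups in level and share, where 0.0274% of genes did not overlap in level.

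Whether PBMT acted differently in the 2 exercise states was tested as an interaction over 24 mice. The longer runs reported for fatigued PBMT mice enter this difference, so it is not that of light alone. No myosin gene passed, where 1 gene of 15108 (0.00662%) did and 665 (4.4%) had an unadjusted p under 0.05. The difference between the PBMT effects was -0.21 for Myh4 (log2, interval -0.71 to 0.29, edgeR adjusted p = 0.948), 0.41 for Myh2 (interval -0.25 to 1.07), 0.33 for Myh8 (-0.44 to 1.09) and 0.04 for Myh1 (-0.50 to 0.58). For Myh3 it was 0.11 (-0.68 to 0.90) and for Myh7 0.10 (SE 1.49). The median was 0.11 for the members and 0.02 for all genes, 5 members being higher and 1 lower. Without sedentary control 4, Myh8 (-0.21), Myh3 (-0.17) and Myh1 (-0.06) turned in sign, and so did Myh7 (-0.74) without fatigued PBMT 5. Myh7 was at 1.42 without fatigued control 6, while 3 genes, no member among them, passed without sedentary PBMT 2.

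The fatigued controls were compared with the sedentary controls. In this difference the treadmill test, any earlier acclimatization runs and the sequencing project cannot be told apart. Myh4, the IIb motor, rose 1.83-fold (95% interval 1.39 to 2.41) from 26170 to 47630 CPM, with 5 of 6 fatigued mice above the highest sedentary mouse. Myh1, its neighbour on the chromosome, was at 1.06-fold (0.883 to 1.28). Myh2 and Myh8 had means below those of the sedentary mice, and Myh7 had a mean above, each without passing the test. Myh4 was thus the 1 member of 6 that was called, at a log2 fold change of 0.87 (SE 0.19, edgeR adjusted p = 0.00517), beside 2366 of 14323 genes, 16.5%, of which 1341 (9.36% of those tested) were higher and 1025 lower. The median log2 fold change of the 6 was 0.001, beside -0.004 over all genes, with 3 higher and 3 lower.

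Values for the members that were not called in the controls were -0.43 for Myh2 (interval -0.91 to 0.04, adjusted p = 0.203), -0.38 for Myh8 (-1.10 to 0.34, adjusted p = 0.470), -0.08 for Myh3 (-0.69 to 0.52) and 2.05 for Myh7 (-0.15 to 4.26, adjusted p = 0.190). The Myh7 value came from 3 of 6 fatigued mice above the highest sedentary mouse and 3 at or below its median, and without fatigued control 6 (35.5 CPM) it was 0.73 (adjusted p = 0.555). Without sedentary control 4 the Myh4 log2 fold change was 1.03 (adjusted p = 0.000363), the Myh8 value turned to 0.14 and the Myh3 value to 0.18, and 3956 genes were called. With any 1 of the 12 mice left out Myh4 stayed between 0.76 and 1.03, and the adjusted p between 0.000363 and 0.0171.

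The myosin heavy chain RNA of fatigued controls held a larger part of Myh4 and smaller parts of Myh1, Myh2 and Myh8 than that of sedentary controls. Its share was 12.3 points higher in the fatigued mice (exact permutation p = 0.00433), and the Myh1 share lay at -11.3 points (exact p = 0.00433) with 5 of 6 fatigued mice below the lowest sedentary mouse. The Myh2 share fell by 0.977 points, and the groups did not overlap (exact p = 0.00216, the smallest that 6 mice against 6 can give). The Myh8 share fell by 0.0341 points, again without overlap (exact p = 0.00216), and without sedentary control 4 it fell by 0.0216 points. With counts not divided by length the Myh8 share fell by 0.0645 points. These were 2 isoforms of 6 without overlap, where the levels of 7.9% of all genes did not overlap in this comparison. Myh3 fell by 0.00254 points (exact p = 0.026), which became an exact p of 0.0519 without sedentary control 1 or 4, and 0.0541 without fatigued control 3. Since shares sum to 100%, a share depends on the levels of the other isoforms as well as on its own. The Myh2 level was 0.741-fold (log2 fold change -0.43, interval -0.91 to 0.04) and was not called. The Myh8 level was 0.767-fold (log2 fold change -0.38, interval -1.10 to 0.34) and was not called either. Without sedentary control 4 the Myh8 log2 fold change was 0.135. The part of the Myh4 level in the lower shares was not tested.

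After PBMT the same comparison, fatigued with sedentary, was made in separate mice. Myh4 rose 1.58-fold (95% interval 1.29 to 1.92), from 30270 to 47620 CPM, and 6 of 6 fatigued mice lay above the highest sedentary mouse. No other member was called: Myh1 was at 1.09-fold, Myh2 at 0.983-fold, Myh8 at 0.957-fold, Myh3 at 1.01-fold and Myh7 at 4.43-fold (log2 fold change 2.15, adjusted p = 0.159), which was 1.32 on the log2 scale without fatigued PBMT 5. For Myh7, 2 of 6 fatigued mice lay above the sedentary median. Myh4 was the 1 member of 6 called (log2 fold change 0.66, SE 0.14, edgeR adjusted p = 0.00285) and the 1 member without overlap, beside 26.9% of 14325 genes called, 2037 (14.2%) higher and 1822 lower, and 11.7% without overlap, 6.23% with the fatigued mice higher. The log2 interval was -0.37 to 0.61 for Myh1, -0.44 to 0.39 for Myh2, -0.26 to 0.13 for Myh8, -0.45 to 0.49 for Myh3 and -0.19 to 4.48 for Myh7. The members split 4 higher and 2 lower, with a median of 0.07 beside 0.003 over all genes. With any 1 mouse left out the Myh4 log2 fold change stayed between 0.56 and 0.75. The control and PBMT comparisons share no mouse, and the interaction given earlier is the test of their difference. Run length differed between these comparisons as well as light.

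Between the exercise states after PBMT the Myh4 share was 8.45 points higher (exact permutation p = 0.0779) and the Myh1 share at -7.99 points (exact p = 0.0823). Without sedentary PBMT 6, the mouse with a Myh4 share of 83.0%, these differences were 11.4 and -10.8 points, each with an exact p of 0.0152. The Myh8 share fell by 0.0200 points without overlap (exact p = 0.00216), and fell by 0.0379 points with counts not divided by length. It was 1 isoform of 6 without overlap in its share, where the levels, not shares, of 11.7% of all genes did not overlap. The Myh2 share fell by 0.452 points (exact p = 0.0433), but by 0.201 points (exact p = 0.0823) without sedentary PBMT 2. It fell by 0.549 points (exact p = 0.00216) without sedentary PBMT 6, and the p was above 0.05 without any 1 of the 6 fatigued PBMT mice. For Myh3 the exact p was 0.0714, with 0.0238, 0.0455 and 0.0281 without fatigued PBMT 1, fatigued PBMT 3 and sedentary PBMT 5, and for Myh7 it was 0.452.

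The 6 genes together took a larger part of the library in fatigued muscle. They held 4.29 ± 1.02% of all counts in sedentary controls (3.42 to 6.25) and 4.46 ± 0.485% after sedentary PBMT (3.76 to 5.04). In fatigued controls they held 6.29 ± 0.584% (5.42 to 7.15), and after fatigued PBMT 6.23 ± 0.464% (5.69 to 7.05). The PBMT groups did not overlap, and among controls the highest sedentary mouse reached into the fatigued range. The ratio of Myh4 to Myh1 per kb had a mean of 1.83 in sedentary controls and 2.63 after sedentary PBMT, and of 3.30 in fatigued controls and 3.64 after fatigued PBMT.

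Other genes of the contractile apparatus were read beside the members. Fast fiber markers (Tnni2, Tnnt3, Tnnc2, Myl1, Mylpf, Atp2a1, Casq1, Pvalb and Actn3) summed to 95520 CPM in sedentary controls (86660 to 124200), 96390 after sedentary PBMT (88240 to 104200), 114500 in fatigued controls (97890 to 120900) and 110300 after fatigued PBMT (101300 to 126800). Atp2a1, the calcium pump of fast fibers, was the most abundant, and none was at 0. In the controls, 2 of 9 rose in fatigued mice, beside 9.36% of all genes: Tnnt3 (log2 fold change 0.38) and Atp2a1 (0.42), and all 9 had positive values (median 0.19). In the PBMT mice 5 of 9 rose (Casq1, Atp2a1, Tnnt3, Tnnc2 and Tnni2), beside 14.2% of all genes, with a median of 0.22. Of the 9 slow fiber genes, 3 were called in the controls, beside 16.5% of all genes: Atp2a2 (0.54) rose in the fatigued mice, Myl3 (-0.74) and Casq2 (-0.51) fell, and the median was 0.24. In the PBMT mice 2 of 9 were called, beside 26.9% of all genes: Tpm3 (0.58) and Atp2a2 (0.54) rose, with a median of 0.54. PBMT gave 0 of 9 slow fiber genes called in sedentary muscle (2 higher, 7 lower, median -0.19), beside 0.0282% of all genes. It gave 0 of 9 in fatigued muscle (9 higher, 0 lower, median 0.23), beside 0.0%. The interaction gave 0 of 9 (9 higher, 0 lower, median 0.33), beside 0.00662%. In immature fiber markers 2 of 7 tested rose in the controls (median 0.25), beside 9.36% of all genes, and 1 of 8 in the PBMT mice (median 0.53), beside 14.2%, and their part in the Myh3 and Myh8 values was not tested.

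The other myosin heavy chain genes, which serve heart, smooth muscle, nonmuscle cells or specialized fibers, were tested for 7 of 8, Myh15 being too low. In fatigued controls 2 of 7 rose, beside 9.36% of all genes: Myh9 (log2 fold change 0.69, SE 0.10, adjusted p = 0.000303), a nonmuscle motor, and Myh11 (0.65, adjusted p = 0.00532), the smooth muscle motor, and the median was 0.23. The 4 smooth muscle markers Myh11, Acta2, Tagln and Cnn1 summed to 129 CPM in sedentary controls (109 to 156) and 181 in fatigued controls (130 to 214), 3 of 4 having risen, with Acta2 the most abundant, none at 0, and their part in the Myh11 value not tested. In fatigued PBMT mice 3 of 7 rose, beside 14.2% of all genes: Myh9 (1.00, adjusted p = 1.05e-05), Myh11 (0.56) and Myh14 (0.43), with a median of 0.26. The smooth muscle sum was 118 CPM in sedentary PBMT mice and 163 in fatigued PBMT mice, 2 of 4 markers having risen. PBMT itself gave 0 of the 7 myosin genes called in either state, beside 0.0282% of all genes in sedentary and 0.0% in fatigued muscle. In each state 1 was higher and 6 lower (medians -0.20 and -0.13). The values of largest size in sedentary muscle were Myh7b (-0.58), Myh13 (-0.29), Myh9 (-0.26) and Myh14 (-0.20), and in fatigued muscle Myh7b (-0.39) and Myh6 (-0.32). Markers of spindle and extraocular fibers (Myh6, Myh7b, Myh13 and Egr3) gave 0 of 4 called in every comparison. Of all genes, PBMT had 0.0282% called in sedentary and 0.0% in fatigued muscle, and the interaction 0.00662%. Between the exercise states 16.5% were called in controls and 26.9% in PBMT mice. Myh13 was the most abundant of these markers. Their sum was 18.4 CPM in sedentary controls (13.2 to 31.4), 14.7 after sedentary PBMT (11.0 to 19.5), 16.7 in fatigued controls (5.70 to 26.2) and 14.2 after fatigued PBMT (8.18 to 20.02), with none at 0.

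Partners that hold myosin in the thick filament were tested for 10 of 12. In the controls 0 of 10 were called, beside 16.5% of all genes, with 9 higher and 1 lower and a median of 0.19. In the PBMT mice 3 of 10 were called, beside 26.9% of all genes: Mybph (1.09), a myosin-binding protein, and Obsl1 (0.28) rose and Lrrc39 (-0.36), a protein of the M-band, fell, with a median of 0.16. PBMT gave 0 of 10 called in sedentary muscle (median 0.08), beside 0.0282% of all genes. It gave 0 of 10 in fatigued muscle (median -0.03), beside 0.0% of all genes, and Mybph stood at 0.36 there.

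Genes that fold myosin or mark it for breakdown were 10, all tested. In the controls 5 of 10 rose, where 9.36% of all genes did, and 0 fell: Trim63 (log2 fold change 1.61, SE 0.22, adjusted p = 0.000326), the ubiquitin ligase MuRF1 that has myosin heavy chain among its substrates, Hsp90aa1 (1.04, adjusted p = 0.000265) and Hspa8 (0.67), chaperones, Fbxo32 (0.53), the ligase atrogin-1, and Usp13 (0.31). In the PBMT mice 6 of 10 rose, where 14.2% of all genes did: Trim63 (2.17, adjusted p = 1.63e-05), Hsp90aa1 (0.95), Hspa8 (0.69), Trim54 (0.32), Unc45b (0.26), the myosin chaperone, and Usp13 (0.23). The medians were 0.30 and 0.29. PBMT gave 0 of 10 called in each state, beside 0.0282% of all genes in sedentary and 0.0% in fatigued muscle. The medians were 0.01 and 0.0003, and Trim63 was at 0.39 in fatigued muscle.

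Regulators of fiber type divided between the directions. In the controls 6 of 36 rose, beside 9.36% of all genes: Ppargc1a (2.11), the coactivator of mitochondrial and slow programs, Rcan1 (1.36), a calcineurin target, Maf (0.55), a transcription factor, Vgll2 (0.51), Eya1 (0.46) and Ppard (0.43). In the same comparison 3 of 36 fell, beside 7.16% of all genes, among them Six4 (-0.83), a homeodomain factor, and the median of the 36 was -0.01. In the PBMT mice 7 rose, beside 14.2% of all genes, among them Ppargc1a (2.05), Rcan1 (1.80), Prox1 (0.88) and Hdac4 (0.74), and 7 fell, beside 12.7% of all genes, among them Six4 (-0.99), Ppargc1b (-0.44), and Nfatc2 (-0.42), with a median of -0.08. PBMT gave 0 of 36 called in sedentary muscle (26 higher, 10 lower, median 0.08), beside 0.0282% of all genes. Nfatc3 (0.29), Ppargc1a (0.28) and Vgll3 (0.27) were among the values of larger size. In fatigued muscle 0 of 36 were called (20 higher, 16 lower, median 0.03), beside 0.0% of all genes. Rcan1 (0.51), Eya4 (0.33), Hdac4 (0.29) and Tead4 (0.28) were largest in size. The interaction gave 0 called in the lists of other myosins, thick filament partners, folding and turnover, and regulators, beside 0.00662% of all genes.

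Genes whose levels followed each isoform from mouse to mouse were found as for Myh7, over the 24 mice with group means removed. Myh4 was followed by Mybpc2, the fast myosin-binding protein C (r = 0.91, and 0.88 without sedentary control 4), Pygm, muscle glycogen phosphorylase (0.89 and 0.85), and Mtss1l (0.89 and 0.85). Myh1 was followed by mitochondrial genes, Atp5b of the ATP synthase (0.86 and 0.85), Got2, an aspartate aminotransferase (0.85 and 0.93), and Aifm1 (0.81 and 0.79). Myh2 was followed by Smtnl1 (0.84 and 0.84), Usp30 (0.77 and 0.76) and the pseudogene Gm10269 (0.76 and 0.76). For Myh8 the values rested on sedentary control 4: Pbxip1 (0.93 and 0.67) and Dctn1 (0.92 and 0.51). Myh3 was followed by Por (0.80 and 0.73), Ngdn (0.80 and 0.73) and Myl4, the embryonic light chain (0.80 and 0.75). Among the members, Myh4 and Myh8 had r = 0.70 (0.60 without sedentary control 4), and Myh1 and Myh7 -0.56.

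Of the 6 members, 5 lie in the fast myosin heavy chain cluster on the plus strand of chromosome 11, in the order Myh3, Myh2, Myh1, Myh4, Myh8 and then Myh13 (GRCm38, GENCODE M21). The cluster ran over 293287 bases, chr11:67078300-67371586, and held 11 annotated genes, 6 of them protein-coding. Myh4 was placed at chr11:67238029-67260446, Myh1 at chr11:67200052-67224575 and Myh2 at chr11:67171027-67197517. Myh8 was at chr11:67277124-67308634 and Myh3 at chr11:67078300-67102291. Myh7 lies apart, on the minus strand at chr14:54970684-54994626, beside the cardiac gene Myh6. Neighbours in the cluster did not have like levels, Myh4 and Myh8 standing at 4350 and 5.33 CPM per kb in sedentary controls. No gene of the cluster other than Myh4 was called in any comparison.

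**Figure D4:**
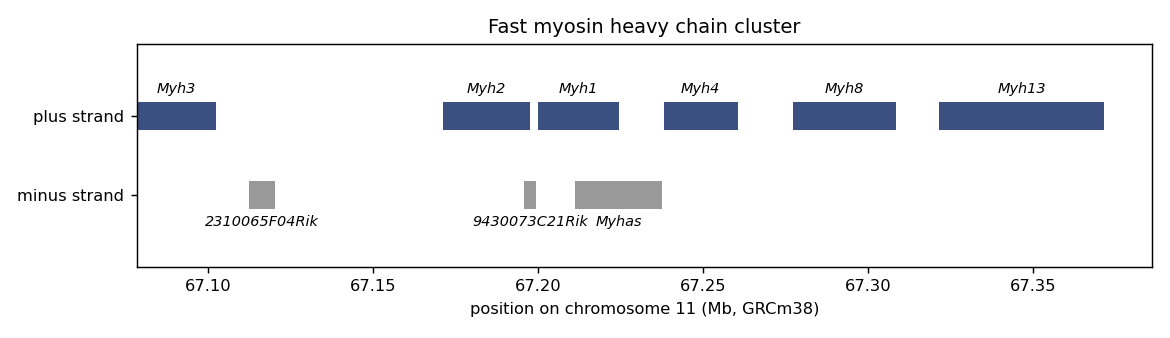
Genes of the cluster with at least 1 count, drawn to scale along chromosome 11 (Mb, GRCm38), the plus strand above and the minus strand below. Protein-coding genes are blue and noncoding genes gray, and the gray bar under Myh1 is the antisense gene Myhas.

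Antisense transcription was listed at 2 places in the cluster. Myhas overlaps Myh1 by 13320 bases on the minus strand and had 70.7 ± 15.2 CPM in sedentary controls, 76.9 ± 17.1 after sedentary PBMT, 75.5 ± 10.3 in fatigued controls and 79.5 ± 11.0 after fatigued PBMT. The groups overlapped, and the log2 difference between fatigued and sedentary controls was 0.10 (interval -0.16 to 0.37). The gene 9430073C21Rik overlaps Myh2 by 1838 bases and had a mean of 1.43 CPM, and the noncoding gene 2310065F04Rik, between Myh3 and Myh2, had 114 CPM. Mir6923 and Gm26476 had 0 counts in the 24 mice. The strand setting of the counting was not stated, so the Myhas value may hold reads of Myh1, whose level was far higher.

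The coding sequences of the 6 genes are alike, which bears on how reads were assigned. Identity over the aligned coding sequence lay between 76.7% (Myh3 and Myh7) and 91.0% (Myh1 and Myh2) in 15 pairs, with a median of 80.8%. Myh1 and Myh4, the abundant pair, shared 90.1% with a longest common run of 161 bases. Of the 150-base windows along the annotated transcripts of each gene, the share found in no other of 14 myosin heavy chain genes was 99.5% for Myh4, 97.6% for Myh1, 98.2% for Myh2, 99.1% for Myh8, 99.7% for Myh3 and 96.1% for Myh7. The longest run common to 2 members is printed because Myh1 stood at 20.7 to 29.6 times Myh2 per kb, so that a small part of Myh1 reads placed on Myh2 would weigh there. It spans 268 bases of exons 23 and 24 of 40 in both genes, coding bases 2711 to 2978, on the plus strand at chr11:67213219-67213597 in Myh1 and chr11:67188318-67188696 in Myh2, and capitals mark the bases of exon 24.
Myh1 and Myh2 shared run: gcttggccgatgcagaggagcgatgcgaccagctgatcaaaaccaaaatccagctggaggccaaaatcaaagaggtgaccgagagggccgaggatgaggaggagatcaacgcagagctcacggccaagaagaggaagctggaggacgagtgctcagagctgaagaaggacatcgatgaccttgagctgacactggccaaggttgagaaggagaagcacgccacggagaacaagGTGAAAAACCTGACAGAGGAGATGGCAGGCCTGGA

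The start regions of the cluster genes were compared because 4 neighbouring genes with related start sequences differed widely in level. Promoters were taken from RefSeq (GRCm38.p6), 250 bases before to 50 after the start, and found for 6 of 6 members. Their start is that of GENCODE for Myh2, Myh3, Myh7 and Myh8. For Myh1 it lies 50 bases after it, and for Myh4 217 bases before it, so that the Myh4 window ends upstream of the gene as placed above. Of 2 promoters listed for Myh7, the one at the GENCODE start was used. The run TTCTAATTATATCC was common to Myh2, Myh1, Myh4 and Myh8 and stood in 4 of 32851 mouse promoters on either strand (0.0122%). The run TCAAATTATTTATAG was common to Myh1, Myh4 and Myh8, stood in 3 promoters (0.0091%), and contains a match to the MEF2 element, which 3.19% of promoters hold. Each run was chosen as the longest shared by the genes named, so its rarity elsewhere follows in part from that choice and is not a test. Both runs are in capitals in the plus-strand sequences that follow.
Myh2 chr11:67170777-67171076: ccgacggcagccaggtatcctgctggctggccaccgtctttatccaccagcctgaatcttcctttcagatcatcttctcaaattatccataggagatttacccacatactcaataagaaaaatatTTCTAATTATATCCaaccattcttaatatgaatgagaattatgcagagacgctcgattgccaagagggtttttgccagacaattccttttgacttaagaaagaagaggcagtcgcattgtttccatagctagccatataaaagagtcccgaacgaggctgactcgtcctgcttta
Myh1 chr11:67199852-67200151: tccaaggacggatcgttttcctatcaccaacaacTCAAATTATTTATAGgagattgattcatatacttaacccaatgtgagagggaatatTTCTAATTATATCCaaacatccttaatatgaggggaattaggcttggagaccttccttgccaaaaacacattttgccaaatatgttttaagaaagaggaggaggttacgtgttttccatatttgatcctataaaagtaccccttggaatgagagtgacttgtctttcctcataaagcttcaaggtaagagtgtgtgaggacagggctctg
Myh4 chr11:67237562-67237861: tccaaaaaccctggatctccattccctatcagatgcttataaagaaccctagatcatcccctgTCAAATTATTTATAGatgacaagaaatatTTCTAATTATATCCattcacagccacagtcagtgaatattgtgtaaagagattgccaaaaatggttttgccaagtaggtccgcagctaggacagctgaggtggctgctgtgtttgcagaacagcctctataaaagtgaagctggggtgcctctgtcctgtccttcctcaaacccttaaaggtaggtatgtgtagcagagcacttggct
Myh8 chr11:67276874-67277173: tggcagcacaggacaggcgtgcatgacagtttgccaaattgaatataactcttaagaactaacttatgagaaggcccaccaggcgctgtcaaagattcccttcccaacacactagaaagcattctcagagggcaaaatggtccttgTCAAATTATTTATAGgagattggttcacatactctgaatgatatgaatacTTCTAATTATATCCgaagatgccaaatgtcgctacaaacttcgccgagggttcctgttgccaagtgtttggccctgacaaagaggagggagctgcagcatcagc
TATAAAAG was found in Myh1, Myh2, Myh3 and Myh4 and in 1.70% of promoters, but not in Myh8 or Myh7. The E-box CANNTG, present in 72.3% of promoters, was found 3 times in Myh4, 2 times each in Myh7 and Myh8, 1 time in Myh3 and not in Myh1 or Myh2, and the CArG box (1.63% of promoters) once in Myh4. A match is a description, not a site or a cause, and the absence of a match says only that the letters are not in this window.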

How the data were processed

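RNA of the TA of 24 mice was sequenced from poly(A)-selected directional libraries as paired reads of 150 bases. The deposited files hold raw counts per gene, 1 file per mouse, which the authors made against GRCm38. The submitters' processing notes name Trimmomatic, STAR 2.7.1a, Picard 2.20.4, StringTie 2.0.4, featureCounts 1.6.0 and HTSeq, without their order, and the strand setting, the annotation release and the handling of reads that map to several genes were not stated. Such reads could shift counts between like genes. Of the 55487 gene identifiers, 55141 matched GENCODE M21, which gave symbols, positions and exon lengths.

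Total counts per mouse lay between 43271093 and 68726155, so the precision of the abundant members was set by the spread between mice and not by depth, while Myh7 had as few as 13 counts in a mouse. The 6 members and the lists (other myosin heavy chains, thick filament partners, myosin folding and turnover, fiber type regulators, and markers of fast, slow, immature, spindle and striated fibers, satellite cells, fibroblasts, tendon, endothelium, smooth muscle, myeloid cells, adipocytes, erythrocytes and keratinocytes) were chosen with earlier results of these data known. Named beside the members were list genes that passed, or else at most 4 of largest size, up to 3 genes that followed each member most closely over the 24 mice, and all genes of the cluster.

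Groups came from the sample titles. Each comparison of 12 mice was fitted in edgeR 4.0.16 (R 4.3.3, limma 3.58.1) with TMM normalization, filterByExpr with a minimum count of 10, and a robust quasi-likelihood test. The interaction was fitted over 24 mice. A gene was called at a Benjamini-Hochberg adjusted p under 0.05 over all genes tested, and intervals are at 95%. CPM was computed in edgeR over library sizes scaled by TMM factors of the 24 mice, and log2 CPM for correlations used a prior count of 2. Shares were tested by the exact permutation test over all arrangements of 6 mice against 6, two-sided. Alternatives were no filter, DESeq2 1.42.0 size factors or its own test, TMM without the 20 most abundant genes, all 24 mice in 1 model, the replicate number as a block, and leaving out each mouse. For shares they were counts not divided by length, the length of the longest transcript, the exon positions that begin a 150-base window found in no other myosin heavy chain gene, a sum that also held Myh6, Myh7b and Myh13, the replicate number as a block, and leaving out each mouse. The marker lists described are not all of those fixed beforehand. The fits were tested on simulated data. Coding sequences were aligned with mafft 7.526, and figures and other values were made in Python 3.11.15 with numpy 2.4.6, scipy 1.17.1, pandas 2.3.3 and matplotlib 3.10.9. No 2 libraries held equal values or were alike within sampling noise over 276 pairs. No mouse was left out of the results given as such.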

Additional observations from a re-analysis of the deposited data

Results flagged for a closer look

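In 9 of 48 groups of 6 mice (6 isoforms, level and share), 1 mouse lay farther from the nearest other than 0.625 of the whole range of its group, the 95% limit of Dixon for 6 values. Chance alone gives such a mouse in about 1 in 20 groups, and the groups are not independent, because level and share use the same counts and mouse 4 recurs.

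Sedentary control 4 was the high mouse 4 times, with 19700 CPM for Myh1, 5.25 CPM for Myh3, 159 CPM for Myh8 and a Myh8 share of 0.135%. Sedentary PBMT 2 was high for Myh2, with 1050 CPM and a share of 2.57%, and fatigued PBMT 6 was low for the Myh2 share, with 0.591%. Fatigued control 6 was high for Myh7, with 35.5 CPM and a share of 0.0337%.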

How the results depend on the processing

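The Myh4 rise in fatigued muscle passed under each alternative and each mouse left out, its log2 fold change over the alternatives other than leaving out a mouse running from 0.86 to 0.92 in controls (adjusted p 4.16e-05 to 0.0168) and from 0.65 to 0.69 after PBMT (2.66e-05 to 0.0106). Of the other alternatives, 169 log2 values and 120 shares kept their direction and their side of the threshold and 5 log2 values turned in sign, and with a mouse left out 387 log2 values and 268 shares kept theirs, 45 log2 values and 5 shares turned in sign, 5 shares came past the threshold and 10 no longer passed it. The cause of the changes that follow was not tested. Depth bears most on Myh7, at 13 counts in the lowest mouse.

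Genes called for PBMT in sedentary muscle numbered 16 with no filter, 60 with DESeq2 and 1 with all 24 mice in the model, and 2 in fatigued muscle with DESeq2. The Myh4 log2 fold change of PBMT in fatigued muscle, near 0, was 0.0015 with DESeq2 size factors and 0.000314 with DESeq2. With the replicate number as a block, genes called were 11 in sedentary and 1 in fatigued muscle, and log2 values were 0.0153 for Myh4 (PBMT in fatigued muscle), -0.0402 for Myh3 (fatigued against sedentary, PBMT) and -0.0270 for Myh7 (interaction). With this block the Myh7 log2 value between the exercise states was 0.939 in the controls and 0.343 after PBMT. Whether the numbers pair mice is not stated: r between mice of the same number exceeded 0.1 in 4 of 6 pairs in fatigued and 0 of 6 in sedentary muscle, so the block serves as an alternative.

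With 1 mouse left out, genes called ran from 2 to 20 for PBMT in sedentary muscle, 1681 to 3956 between the controls and 1 to 3 for the interaction. For PBMT in sedentary muscle the log2 value ran from -0.24 to -0.0133 for Myh1, -0.51 to -0.20 for Myh2, 0.12 to 0.38 for Myh4, 0.18 to 0.80 for Myh7, -0.33 to 0.0240 for Myh3 and -0.36 to 0.26 for Myh8, and the Myh8 share difference from -0.0164 to 0.000713 points. For PBMT in fatigued muscle the log2 value ran from -0.24 to 0.00311 for Myh1, -0.0263 to 0.22 for Myh2, -0.29 to 0.0474 for Myh3, -0.0683 to 0.0826 for Myh4 and -0.26 to 1.91 for Myh7. The share differences there ran from -0.00383 to 0.124 points for Myh2, -0.000671 to 0.000178 for Myh3 and -0.000461 to 0.0124 for Myh7. Between the controls the log2 value ran from 0.00602 to 0.17 for Myh1, -0.27 to 0.18 for Myh3 and -0.50 to 0.14 for Myh8, and the Myh3 share difference from -0.00299 to -0.00212 points. Between the PBMT groups the log2 value ran from -0.0347 to 0.23 for Myh1, -0.12 to 0.16 for Myh2, -0.13 to 0.14 for Myh3 and -0.13 to -0.0235 for Myh8. Share differences there ran from -10.8 to -6.12 points for Myh1, -0.549 to -0.201 for Myh2, -0.00195 to -0.00115 for Myh3 and 6.32 to 11.4 for Myh4. For the interaction the log2 value ran from -0.12 to 0.15 for Myh1, -0.17 to 0.30 for Myh3, -0.38 to -0.12 for Myh4, -0.74 to 1.42 for Myh7 and -0.21 to 0.44 for Myh8.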

Other observations

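Markers of the connective tissue around the fibers passed the test between the exercise states for some genes, and their part in the myosin values was not tested. The 5 fibroblast genes (Pdgfra, Dcn, Col1a1, Col3a1 and Lum) summed to 796 CPM in sedentary controls (618 to 973), 676 after sedentary PBMT (503 to 990), 1195 in fatigued controls (881 to 1488) and 1442 after fatigued PBMT (801 to 3052), Col3a1 being the most abundant. Of these, 2 of 5 rose in the controls (median log2 fold change 0.53) and 3 of 5 in the PBMT mice (0.83), beside 9.36% and 14.2% of all genes that rose in these comparisons. The 5 tendon genes (Tnmd, Scx, Mkx, Fmod and Thbs4) summed to 153 CPM (108 to 217), 157 (122 to 200), 308 (105 to 436) and 363 (179 to 818) in the same order, Fmod being the most abundant, and 1 of 5, Thbs4, rose in the controls and in the PBMT mice. The tendon sum of fatigued control 4, 105 CPM, was below that of every sedentary control. No gene of these 2 lists was at 0.

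In the counts that follow, 16.5% of all genes were called in the controls and 26.9% in the PBMT mice. Among vessel and blood genes, 1 of 4 endothelial genes rose in each pair of exercise states (Cldn5 in controls, Pecam1 after PBMT), their sum being 208 CPM in sedentary controls (194 to 234) and 245 in fatigued controls (199 to 321), with Cdh5 the most abundant. Of 5 myeloid genes Csf1r rose and S100a8 fell in both pairs, their sum staying between 10.8 and 46.2 CPM in every mouse, with S100a8 at 11.4 CPM in sedentary controls and 0.259 CPM in fatigued controls. Hemoglobin and Alas2, the 5 erythrocyte genes, gave 0 called and summed to 35.5 to 156 CPM. Satellite cell genes summed to 19.5 to 32.5 CPM, with Cdh15 the most abundant, 0 of 6 called in the controls and 3 of 6 after PBMT, where Vcam1 and Chrdl2 rose and Pax7 fell. The 4 adipocyte genes gave 0 called (4.26 to 89.8 CPM, Cfd the most abundant). Of 4 keratinocyte genes, which skin would bring, 1 was tested, Krt10, which fell in fatigued PBMT mice. Their sum lay between 1.16 and 25.5 CPM, and up to 3 of the 4 were at 0 in a mouse. Of 5 striated muscle genes Acta1 rose in both pairs of exercise states, and Mb, myoglobin, fell in the controls. PBMT gave 0 called in each of these lists in both exercise states, beside 0.0282% of all genes in sedentary and 0.0% in fatigued muscle.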
